A study of Homo sapiens with 30 samples.

Results

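The levels of 9 carriers of drugs and bile constituents were examined in HepG2 cells, an established human liver cancer cell line. They are the efflux pumps ABCB1, ABCB4, ABCC1, ABCC2, ABCC3, ABCC4 and ABCG2 and the uptake carriers SLCO1B1 and SLCO1B3. The members were chosen by name, as carriers tied to the uptake and efflux of Sorafenib and to resistance against it, by a rule that uses no measured value. Earlier results of these data were known when they were chosen. All 9 were found among the 60107 genes of the count table, under the Ensembl identifiers ENSG00000085563 (ABCB1), ENSG00000005471 (ABCB4), ENSG00000103222 (ABCC1), ENSG00000023839 (ABCC2), ENSG00000108846 (ABCC3), ENSG00000125257 (ABCC4), ENSG00000118777 (ABCG2), ENSG00000134538 (SLCO1B1) and ENSG00000111700 (SLCO1B3). Gene positions below are on GRCh38. Messenger RNA was measured in 30 libraries, in 10 groups of 3 replicates that the submitters describe as biological. All cultures were transfected with Lipofectamine RNAiMAX, and Sorafenib at 10 µM or its solvent DMSO was added 24 h later. At 6 h of treatment the cells carried an inhibitor control (IC_DMSO and IC_sorafenib) or an inhibitor of miR-200c-3p (I200c_DMSO and I200c_sorafenib). At 24 h of treatment they carried a mimic control (MC_DMSO and MC_sorafenib), a mimic of miR-222-5p (M222_DMSO and M222_sorafenib) or a mimic of miR-512-3p (M512_DMSO and M512_sorafenib). No untransfected culture was analysed here. The cells are 1 line, which the labels call hepatocellular carcinoma and the study calls hepatoblastoma.

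Hepatocytes are polarised cells that take drugs up from the blood across the sinusoidal membrane and pass them on, often after conjugation, into bile across the canalicular membrane or back into the blood across the basolateral membrane. The pumps of the ABC superfamily use ATP for export, whereas the SLCO carriers import organic anions without using ATP themselves. In the liver, ABCB1, ABCB4, ABCC2 and ABCG2 are known as canalicular pumps, ABCC1, ABCC3 and ABCC4 as basolateral pumps, and SLCO1B1 and SLCO1B3 as sinusoidal carriers. High efflux and low uptake are textbook routes of drug resistance in tumour cells, and several of these carriers accept Sorafenib, a multikinase inhibitor used against advanced liver cancer.

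The sequences shown are those that link the transfected oligonucleotides to the carriers: the 3 miRNAs, with bases 2 to 8 (the seed) in capitals, and the single stretch found in a carrier's 3′ untranslated region (3′ UTR) that holds the complement of a seed. The miRNA sequences come from RefSeq on GRCh38.p14.
hsa-miR-200c-3p: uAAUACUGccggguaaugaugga
hsa-miR-222-5p: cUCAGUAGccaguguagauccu
hsa-miR-512-3p: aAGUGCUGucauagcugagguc
These map to chr12:6963742-6963764 (plus strand), to chrX:45747073-45747094 (minus strand) and, for miR-512-3p, to 2 gene copies at chr19:53666729-53666750 and chr19:53669213-53669234 (plus strand). Bases 2 to 8 differ between all 3 miRNAs. The transcript strand was searched for the complement of each seed. That word is CAGTATT for the miRNA inhibited at 6 h, whereas the words for the mimics are CTACTGA (miR-222-5p) and CAGCACT (miR-512-3p). Only the Ensembl canonical transcript of each gene was searched, and only for these full words. Other transcripts and shorter matches were not searched. The 3′ UTRs of the 9 carriers were 400 (ABCB4) to 1965 bases long (ABCG2), and a single match was found, for miR-512-3p in ABCG2. It is shown with 10 bases on either side and the match in capitals, and lies in the last exon of ABCG2, at chr4:88090678-88090704 of GRCh38, on the minus strand.
ABCG2 3′ UTR: aaatacttttCAGCACTtacaggagtt
Among all genes tested with a 3′ UTR in the annotation, 19.3% held the word for miR-200c-3p, 10.5% that for miR-222-5p and 23.0% that for miR-512-3p.

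The libraries were QuantSeq 3′ libraries, in which a transcript yields about 1 fragment, close to its 3′ end, so a level in CPM (counts relative to the library total, scaled with TMM factors over the 30 libraries) needs no division by gene length when genes are compared. Total counts ran from 3938764 to 9657063 per library, and mitochondrial genes held 17.5% to 26.8% of them. Hepatocyte markers such as ALB, the major plasma protein, summed to 8398 to 18645 CPM over 9 genes. Markers of stellate, endothelial and immune cells of the liver summed to 0 to 19.3 CPM over 12 genes, 4 of which (COL1A2, MARCO, VWF and STAB2) had no count. Within these few counts M512_DMSO stood highest, with sums of 13.9 to 19.3 CPM against 0 to 4.36 CPM in M512_sorafenib, and the hepatocyte sum moved with it, at 17794 to 18645 CPM against 10575 to 12060 CPM. Their part in the values below was not tested. Levels are per culture, so that fewer cells with a transcript and less of it per cell cannot be told apart.

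All 7 efflux pumps were detected in every library, and neither uptake carrier was detected in any. ABCC2 was the most abundant, at a mean of 65.7 ± 16.2 CPM (SD, n = 30), followed by ABCC3 at 50.9 ± 9.35 CPM and ABCB1 at 33.1 ± 8.20 CPM. ABCC1 held 20.6 ± 9.00 CPM, ABCC4 14.03 ± 3.40 CPM, ABCG2 10.5 ± 3.02 CPM and ABCB4 6.38 ± 3.28 CPM. ABCC2 was the highest of the 7 pumps in 24 libraries and ABCC3 in the other 6, while ABCB4 was the lowest in 25. The mean sum of the 7 in a group ran from 186 ± 12.2 CPM in M222_sorafenib to 224 ± 20.3 CPM in MC_DMSO (SD, n = 3). ABCC2, ABCC3 and ABCB1 made up most of that sum in each group, with shares of 24.7% to 37.5% for ABCC2, 19.8% to 31.8% for ABCC3 and 11.7% to 19.0% for ABCB1.

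**Figure D1:**
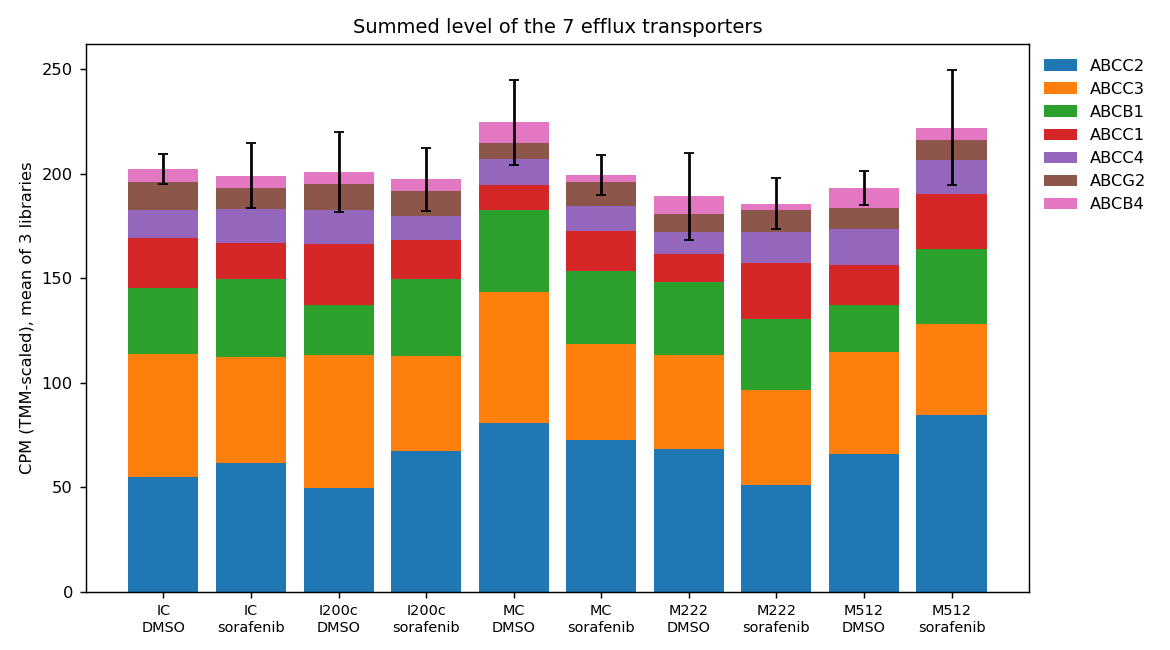
Summed level of the 7 efflux pumps by group: stacked bars give the mean CPM (TMM-scaled) of each pump over 3 libraries, and the error bar is the SD of the sum. The group means lie between 186 CPM in M222_sorafenib and 224 CPM in MC_DMSO, with ABCC2 and ABCC3 as the widest bands in every bar.

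**Figure D2:**
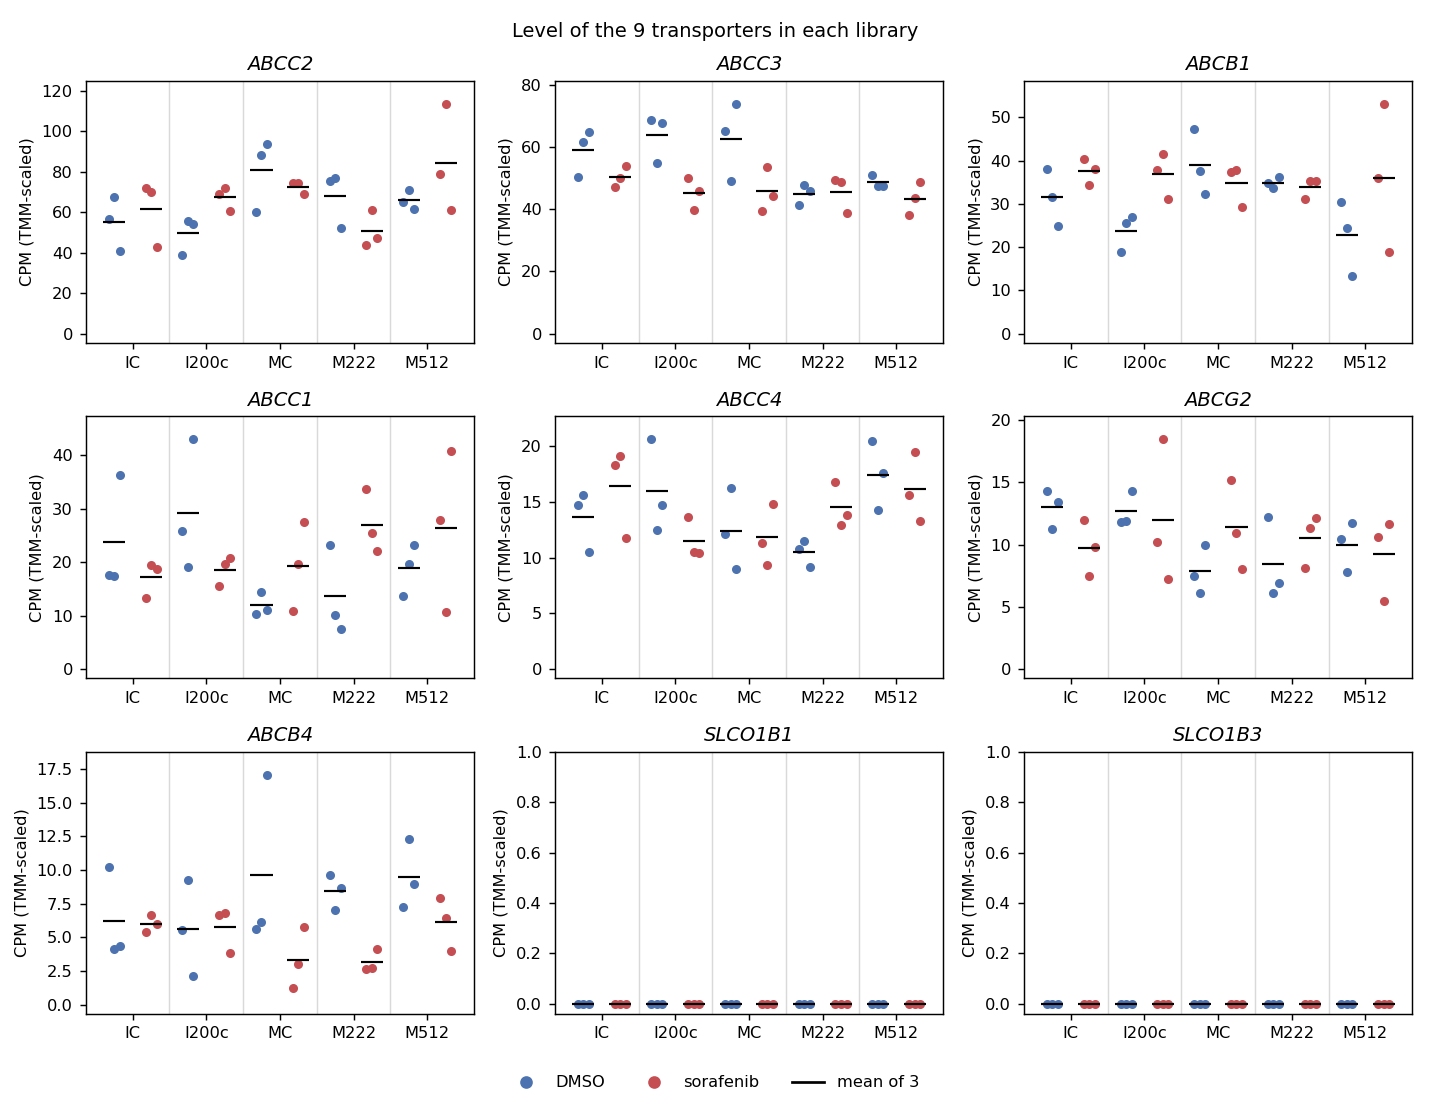
Level of the 9 carriers in each of the 30 libraries, in CPM (TMM-scaled), by transfection, with DMSO in blue, Sorafenib in red and the mean of 3 libraries as a black line. The DMSO and Sorafenib libraries overlap in most panels, and SLCO1B1 and SLCO1B3 lie at 0 in all 30 libraries.

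The order of the 10 groups was examined for each pump. For each of the 7, none of the 9 neighbouring pairs in the order of group means was free of overlap between its libraries, whereas the highest and the lowest group did not overlap. The highest and the lowest group were picked by the same values, so their separation is no test of a difference. The share of all genes with such a separation was not counted. The SD between replicates within a group, on the log2(CPM + 1) scale, was smallest for ABCC3 (0.18) and largest for ABCB4 (0.55) and ABCC1 (0.55), so the same difference in level is harder to see in those last pumps.

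SLCO1B1 (chr12:21131194-21239796, plus strand) and SLCO1B3 (chr12:20810702-20916911, plus strand), the carriers known as OATP1B1 and OATP1B3 that take up bilirubin, statins and drug conjugates from the blood, had 0 counts in all 30 libraries. A count of 0 allows up to 0.311 to 0.762 CPM in a single library and up to 0.0151 CPM over the 198675053 counts of all of them, counting error only. Even the highest of these single-library limits lies under the lowest level of any efflux pump in any library, 1.26 CPM for ABCB4. Neither carrier entered a test, and nothing about an effect of Sorafenib on them was measurable at this depth. The neighbouring family members SLCO1B7, SLCO1C1 and SLCO1A2 also had 0 counts in all libraries, as did the readthrough gene SLCO1B3-SLCO1B7. Among the other solute carriers examined, SLC29A1, the nucleoside transporter ENT1, stood highest at a mean of 145 CPM, and the family member SLCO2B1 was present at 9.75 CPM. The bile salt carrier SLC10A1 (NTCP) had 3 counts over all libraries. These 3 were chosen for naming after their levels were seen.

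The central comparison asked whether Sorafenib changed the carriers in each transfection. None of the 7 tested pumps passed the edgeR quasi-likelihood test at an adjusted p under 0.05 in any of the 5 transfections, 35 tests in all, and none passed with DESeq2 either. At an unadjusted p under 0.05, 8 of the 35 passed with each tool. The share of all tested genes called was 0.0393% in IC, 2.28% in I200c, 2.6% in MC, 4.38% in M222 and 9.96% in M512. All 5 shares rest on counts that moved by over 1.5 times when single libraries were left out. At an unadjusted p under 0.05 these shares were 3.78%, 15.3%, 16.9%, 19.1% and 24.2%, against 0, 3, 2, 2 and 1 of the 7 pumps. The lowest adjusted p of the 35 was 0.12, for ABCB1 in I200c. The median log2 fold change of the 7 pumps was −0.07 in IC, −0.09 in I200c, −0.15 in MC, 0.02 in M222 and −0.11 in M512, beside medians over all tested genes of 0.0017, 0.0046, −0.015, −0.035 and −0.030. A test that is missed does not show that a level stayed the same, so 95% intervals are used below, and log2 fold changes are given ± SE (3 libraries in each group). Of the 35 intervals, 19 lay wholly within a 2-fold change in either direction: all 5 for ABCC2, all 5 for ABCC3, 3 each for ABCB1 and ABCC4, 2 for ABCG2, 1 for ABCB4 and 0 for ABCC1.

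**Figure D3:**
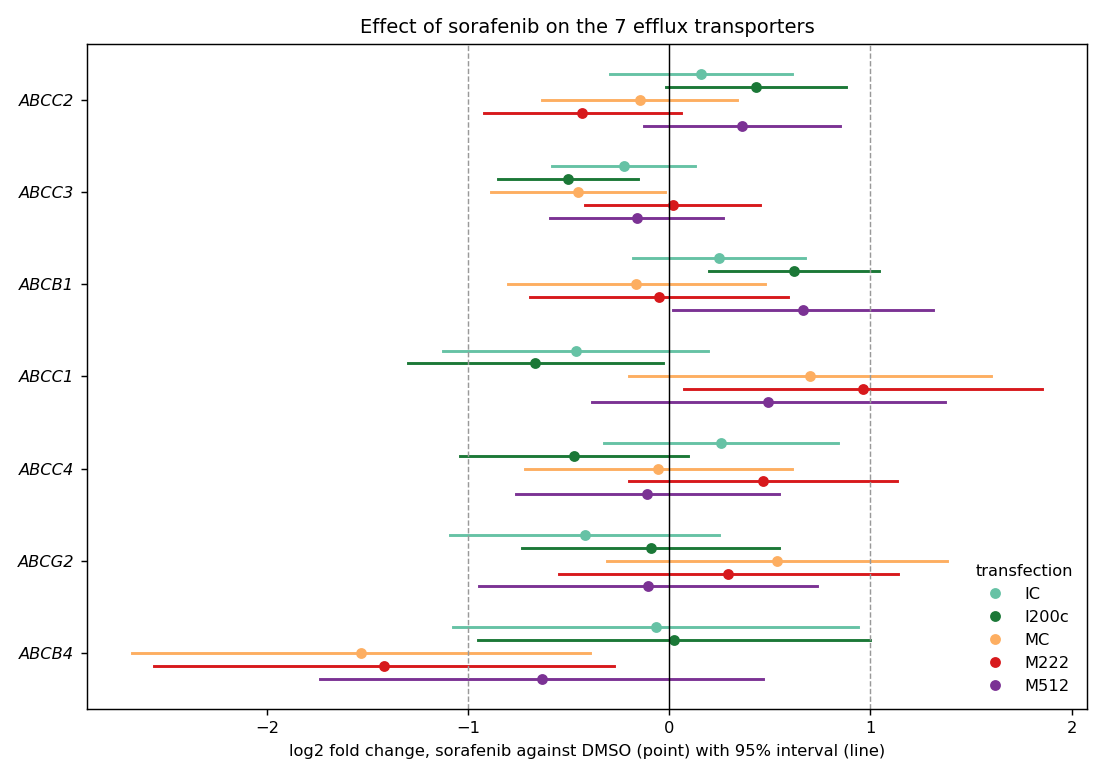
Log2 fold change of Sorafenib against DMSO for the 7 efflux pumps in the 5 transfections (point, colour by transfection) with its 95% interval (line), and dashed lines at a 2-fold change. The intervals of ABCC2 and ABCC3 all lie between the dashed lines, and the widest are those of ABCB4 in MC and M222, which lie wholly below 0.

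ABCB1 (chr7:87503017-87713323, minus strand) encodes P-glycoprotein, the multidrug pump first found in resistant tumour cells. In IC, ABCB1 measured 38.1, 31.5 and 24.8 CPM in DMSO and 40.3, 34.2 and 38.1 CPM in Sorafenib. With the miR-200c-3p inhibitor, ABCB1 measured 19.0, 25.5 and 26.9 CPM in DMSO and 37.9, 41.5 and 31.2 CPM in Sorafenib. In M512, ABCB1 measured 30.4, 24.5 and 13.3 CPM in DMSO and 36.0, 53.1 and 18.9 CPM in Sorafenib. The 3 Sorafenib libraries of I200c all lay above its 3 DMSO libraries, while those of IC and M512 overlapped, and the M512_sorafenib libraries were the most scattered of any group. The log2 fold change was 0.62 ± 0.20 in I200c (95% interval 0.20 to 1.04, edgeR adjusted p = 0.12) and 0.66 ± 0.31 in M512 (95% interval 0.02 to 1.31, edgeR adjusted p = 0.19). Leaving out the library of M512_sorafenib replicate 3, the lowest of the 3, gave 0.99 and an edgeR adjusted p of 0.0332, the only setting in which a pump passed the test. Without M512_sorafenib replicate 2, the highest of the 3, the value was 0.27. The edgeR adjusted p over the other libraries left out 1 at a time reached 0.669. M512_sorafenib replicate 3 also differed as a library from replicates 1 and 2. Mitochondrial genes held 17.5% of its counts against 24.2% in each of them, and 16582 genes had a count against 13656 and 13866. The number of genes with a count also varied between replicates in MC_sorafenib (13394, 16132 and 15170) and M222_sorafenib (13252, 16232 and 14703). In IC the log2 fold change was 0.25 ± 0.21. In the 2 other transfections at 24 h, ABCB1 measured 47.2, 37.6 and 32.3 CPM in DMSO and 37.3, 37.8 and 29.2 CPM in Sorafenib for MC. For M222 it measured 34.9, 33.6 and 36.3 CPM in DMSO and 31.2, 35.2 and 35.2 CPM in Sorafenib. Libraries overlapped in both, with log2 fold changes of −0.16 ± 0.31 and −0.05 ± 0.31. Of the 10 group means, those of M512_DMSO (22.7 CPM) and I200c_DMSO (23.8 CPM) were the lowest. The Sorafenib means were 36.9 CPM in I200c and 37.5 CPM in IC, and 36.0 CPM in M512 and 34.8 CPM in MC.

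ABCC2 (chr10:99782640-99852594, plus strand) encodes MRP2, which exports bilirubin glucuronide and other conjugates into bile. In IC, ABCC2 measured 56.7, 67.6 and 40.7 CPM in DMSO and 72.2, 70.1 and 42.7 CPM in Sorafenib. In I200c, ABCC2 measured 39.0, 55.7 and 54.1 CPM in DMSO and 69.1, 72.1 and 60.9 CPM in Sorafenib. The Sorafenib libraries of I200c all lay above its DMSO libraries, with a log2 fold change of 0.43 ± 0.21 (edgeR adjusted p = 0.35), whereas those of IC overlapped (0.16 ± 0.22). In MC, ABCC2 measured 60.3, 88.5 and 93.9 CPM in DMSO and 74.3, 74.6 and 69.3 CPM in Sorafenib. In M222, ABCC2 measured 75.6, 76.9 and 52.0 CPM in DMSO and 43.9, 61.3 and 47.4 CPM in Sorafenib. In M512, ABCC2 measured 65.1, 70.9 and 61.8 CPM in DMSO and 78.8, 114 and 61.3 CPM in Sorafenib. All 3 pairs of groups at 24 h overlapped, and the log2 fold changes had both signs: −0.15 ± 0.24 in MC, −0.43 ± 0.24 in M222 and 0.36 ± 0.24 in M512. Over the 5 transfections, the intervals of ABCC2 ran from 0.527-fold (M222) to 1.84-fold (I200c).

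ABCG2 (chr4:88090150-88231628, minus strand) encodes BCRP, a canalicular pump for sulphated conjugates and many anticancer drugs. In IC, ABCG2 measured 14.3, 11.3 and 13.4 CPM in DMSO and 11.999, 7.47 and 9.79 CPM in Sorafenib. In I200c, ABCG2 measured 11.8, 11.9 and 14.4 CPM in DMSO and 10.2, 18.5 and 7.24 CPM in Sorafenib. Libraries overlapped in both, with log2 fold changes of −0.42 ± 0.32 and −0.09 ± 0.31. In MC, ABCG2 measured 7.51, 6.14 and 9.99 CPM in DMSO and 15.2, 10.9 and 8.08 CPM in Sorafenib. In M222, ABCG2 measured 12.3, 6.09 and 6.94 CPM in DMSO and 8.12, 11.4 and 12.1 CPM in Sorafenib. In M512, ABCG2 measured 10.5, 7.76 and 11.8 CPM in DMSO and 10.6, 5.46 and 11.7 CPM in Sorafenib. These groups overlapped as well, and the log2 fold changes were 0.53 ± 0.41, 0.29 ± 0.41 and −0.11 ± 0.41, with edgeR adjusted p between 0.54 (MC) and 0.91 (M512).

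ABCB4 (chr7:87401696-87480435, minus strand), the neighbour and close paralogue of ABCB1, encodes the MDR3 protein that moves phosphatidylcholine into bile. It was the least abundant of the pumps, at 9 to 118 counts per library, and its intervals were the widest. In MC, ABCB4 measured 5.60, 6.14 and 17.1 CPM in DMSO and 1.26, 2.99 and 5.73 CPM in Sorafenib. In M222, ABCB4 measured 9.59, 6.99 and 8.67 CPM in DMSO and 2.66, 2.72 and 4.10 CPM in Sorafenib. In M512, ABCB4 measured 7.22, 12.3 and 8.92 CPM in DMSO and 7.90, 6.44 and 3.98 CPM in Sorafenib. The M222 groups did not overlap, with all Sorafenib libraries lower, while in MC a single DMSO library at 17.1 CPM stood far above the others and 1 Sorafenib library reached into the DMSO range. The log2 fold change was −1.53 ± 0.55 in MC (95% interval −2.67 to −0.39, edgeR adjusted p = 0.14), −1.42 ± 0.55 in M222 (95% interval −2.56 to −0.27, edgeR adjusted p = 0.15) and −0.63 ± 0.53 in M512 (edgeR adjusted p = 0.51). With all libraries these MC and M222 values were the largest in size of the 35 Sorafenib estimates, and neither passed the test. The MC value was −0.81 without MC_DMSO replicate 3, the library at 17.1 CPM, and ranged down to −2.18 (without MC_sorafenib replicate 3). In IC, ABCB4 measured 10.2, 4.14 and 4.39 CPM in DMSO and 5.39, 6.65 and 6.02 CPM in Sorafenib. With the miR-200c-3p inhibitor, ABCB4 measured 5.52, 9.28 and 2.11 CPM in DMSO and 6.63, 6.77 and 3.80 CPM in Sorafenib. Both pairs at 6 h overlapped, and the log2 fold changes were near 0, at −0.07 ± 0.48 and 0.02 ± 0.47. How the counting treated reads that fit both ABCB1 and ABCB4 was not tested, so the values of this pair carry that uncertainty.

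ABCC3 (chr17:50634777-50692253, plus strand) encodes MRP3, which returns glucuronides and bile salts from the hepatocyte to the blood. In IC, ABCC3 measured 50.3, 61.6 and 64.8 CPM in DMSO and 47.3, 50.0 and 53.9 CPM in Sorafenib. With the miR-200c-3p inhibitor, ABCC3 measured 68.7, 55.0 and 67.7 CPM in DMSO and 49.9, 39.8 and 45.9 CPM in Sorafenib. The 3 Sorafenib libraries of I200c all lay below its DMSO libraries, and the log2 fold change was −0.50 ± 0.17 (95% interval −0.85 to −0.16, edgeR adjusted p = 0.13), beside −0.23 ± 0.17 in IC, where the libraries overlapped. In MC, ABCC3 measured 65.0, 48.9 and 73.8 CPM in DMSO and 39.4, 53.5 and 44.2 CPM in Sorafenib. In M222, ABCC3 measured 41.4, 47.8 and 45.8 CPM in DMSO and 49.5, 48.8 and 38.6 CPM in Sorafenib. In M512, ABCC3 measured 51.2, 47.5 and 47.3 CPM in DMSO and 38.1, 43.5 and 48.7 CPM in Sorafenib. Libraries overlapped in all 3. In MC the interval lay below 0, from −0.89 to −0.02 around −0.45 ± 0.21 (edgeR adjusted p = 0.27), and the other values were 0.02 ± 0.21 in M222 and −0.16 ± 0.21 in M512. Over the 5 transfections, the intervals of ABCC3 ran from 0.541-fold (MC) to 1.37-fold (M222).

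ABCC1 (chr16:15949138-16143257, plus strand) encodes MRP1, a pump for glutathione conjugates and anticancer drugs that is scarce in normal liver. In IC, ABCC1 measured 17.7, 17.5 and 36.3 CPM in DMSO and 13.4, 19.5 and 18.7 CPM in Sorafenib. In I200c, ABCC1 measured 25.8, 19.1 and 43.0 CPM in DMSO and 15.5, 19.6 and 20.8 CPM in Sorafenib. Groups overlapped in both, with 1 DMSO library of each, at 36.3 and 43.0 CPM, far above the rest, and the log2 fold changes were −0.47 ± 0.31 in IC and −0.67 ± 0.30 in I200c (edgeR adjusted p = 0.3). In MC, ABCC1 measured 10.3, 14.5 and 11.1 CPM in DMSO and 10.9, 19.7 and 27.5 CPM in Sorafenib. In M222, ABCC1 measured 23.2, 10.2 and 7.46 CPM in DMSO and 33.6, 25.4 and 22.1 CPM in Sorafenib. In M512, ABCC1 measured 13.7, 19.6 and 23.2 CPM in DMSO and 27.9, 10.7 and 40.7 CPM in Sorafenib. The 24 h groups overlapped too, and here the estimates lay above 0, at 0.70 ± 0.44 in MC, 0.96 ± 0.43 in M222 (95% interval 0.07 to 1.85, edgeR adjusted p = 0.22) and 0.49 ± 0.43 in M512. In I200c the interval ran from −1.30 to −0.03. Without M222_DMSO replicate 1, the highest of its group, the M222 value was 1.63 (edgeR adjusted p = 0.0670), and without M222_DMSO replicate 3 it was 0.70. Single libraries also carried much of the other estimates. The IC value was −0.018 without IC_DMSO replicate 3, and the I200c value −0.27 without I200c_DMSO replicate 3. The MC value was 0.37 without MC_sorafenib replicate 3, and the M512 value 0.043 without M512_sorafenib replicate 3. Every interval of ABCC1 reached past a 2-fold change in at least 1 direction.

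ABCC4 (chr13:95019835-95301475, minus strand) encodes MRP4, which exports bile salts together with glutathione, and cyclic nucleotides. In IC, ABCC4 measured 14.7, 15.6 and 10.5 CPM in DMSO and 18.3, 19.2 and 11.8 CPM in Sorafenib. With the miR-200c-3p inhibitor, ABCC4 measured 20.6, 12.5 and 14.7 CPM in DMSO and 13.6, 10.5 and 10.4 CPM in Sorafenib. Libraries overlapped, with log2 fold changes of 0.26 ± 0.28 and −0.47 ± 0.27. In MC, ABCC4 measured 12.1, 16.2 and 8.97 CPM in DMSO and 11.3, 9.35 and 14.8 CPM in Sorafenib. In M222, ABCC4 measured 10.8, 11.5 and 9.19 CPM in DMSO and 16.7, 12.9 and 13.9 CPM in Sorafenib. In M512, ABCC4 measured 20.4, 14.3 and 17.6 CPM in DMSO and 15.6, 19.5 and 13.3 CPM in Sorafenib. All 3 Sorafenib libraries of M222 lay above its DMSO libraries, at a log2 fold change of 0.47 ± 0.32 (edgeR adjusted p = 0.47), while those of MC (−0.05 ± 0.32) and M512 (−0.11 ± 0.32) overlapped.

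Read over the transfections, separation of Sorafenib from DMSO libraries was seen for 3 pumps in I200c (ABCB1 and ABCC2 higher, ABCC3 lower, beside 8.71% and 8.68% of all genes in those directions), for 2 in M222 (ABCC4 higher, ABCB4 lower, beside 13.9% and 12.9%) and for 0 in IC, MC and M512. Of all tested genes, 12.9% did not overlap in IC, 17.4% in I200c, 24.9% in MC, 26.8% in M222 and 29.9% in M512. In M512, where the largest share of genes was called, none of the 7 pumps was separated.

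A second question was whether the oligonucleotides themselves moved the carriers, or altered their response to Sorafenib. None of the 7 pumps passed the edgeR test in the 6 comparisons of an oligonucleotide with its control (I200c against IC, M222 against MC and M512 against MC, each in DMSO and in Sorafenib), and none in the 3 interactions of an oligonucleotide with Sorafenib. DESeq2 called none either. At an unadjusted p under 0.05, with each tool, the 6 comparisons gave 3 and the interactions 0. Of all genes, 5.24%, 5.56% and 10.5% had such a p for I200c, M222 and M512 in DMSO, 2.14%, 6.04% and 11.1% in Sorafenib, and 3.24%, 1.96% and 5.04% in the interactions. The share of all genes called was, in DMSO, 0.0157% for I200c, 0% for M222 and 0.634% for M512, in Sorafenib 0%, 0% and 0.355%, and for the interactions 0%, 0% and 0.00755%. The groups did not overlap for ABCC3 in M222_DMSO against MC_DMSO (log2 fold change −0.49 ± 0.21, edgeR adjusted p = 0.83), with all mimic libraries lower. They were also separate for ABCB1 in M512_DMSO against MC_DMSO (−0.79 ± 0.31, edgeR adjusted p = 0.33), likewise lower with the mimic. The third pair without overlap was ABCC2 in M222_sorafenib against MC_sorafenib (−0.54 ± 0.24, edgeR adjusted p = 0.77). Of all tested genes, 7.32%, 10.3% and 6.19% were lower without overlap in those 3 comparisons. MC_DMSO is the shared control of the M222 and M512 values. The M512_DMSO libraries of ABCB1 also serve as the DMSO side of its Sorafenib value in M512.

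ABCG2, the carrier with a match to the seed of miR-512-3p in its 3′ UTR, held 9.99 ± 2.04 CPM in M512_DMSO and 7.88 ± 1.95 CPM in MC_DMSO (SD, n = 3). Its log2 fold change of the mimic against its control was 0.32 ± 0.41 in DMSO (95% interval −0.52 to 1.16) and −0.32 ± 0.41 in Sorafenib (95% interval −1.16 to 0.52). The estimates had opposite signs, and the libraries overlapped in both treatments.

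The inhibitor control at 6 h and the mimic control at 24 h allow a look at time, although the kind of control oligonucleotide changed with it, and time and oligonucleotide cannot be told apart. In the interaction of time with Sorafenib, 0 of the 7 pumps passed with edgeR and 0 with DESeq2, and 1 (ABCC1) did at an unadjusted p under 0.05, where 0.216% of all genes were called and 13.7% had an unadjusted p under 0.05. ABCC1 had the highest value, 1.15 ± 0.49 (95% interval 0.12 to 2.18, edgeR adjusted p = 0.31), as its Sorafenib estimate lay below 0 in IC and above 0 in MC. This value was 0.70 without IC_DMSO replicate 3. ABCB4 had the lowest, −1.50 ± 0.78, with an interval of −3.15 to 0.14. Between the DMSO groups, MC against IC, 0 of 7 passed with either tool and 2 (ABCC1 and ABCC2) did at an unadjusted p under 0.05, where 0.528% of all genes were called and 15.8% had such a p. ABCC1 and ABCG2 were lower in all MC_DMSO libraries than in all IC_DMSO libraries, at −0.97 ± 0.35 (edgeR adjusted p = 0.18) and −0.67 ± 0.33 (edgeR adjusted p = 0.33), where 11.9% of all genes were lower without overlap. The ABCC1 value was −0.53 without IC_DMSO replicate 3. ABCC2 was at 0.59 ± 0.23 (edgeR adjusted p = 0.22), with overlap.

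The pumps were next set beside the rest of the transport machinery, in lists chosen by function. Of all tested genes, Sorafenib called 0.0393% in IC, 2.28% in I200c, 2.6% in MC, 4.38% in M222 and 9.96% in M512. Among 22 other ABC transporters, 18 were tested in each transfection, and Sorafenib called 0 in IC, 1 in I200c, 0 in MC and M222, and 4 in M512. DESeq2, the fit without a filter and the replicate block each called 1 lower in MC and 1 lower in M222. In M512, ABCA5, a lipid transporter of lysosomal membranes, rose from 11.6 ± 2.97 CPM to 30.6 ± 6.44 CPM (log2 fold change 1.40 ± 0.33, edgeR adjusted p = 0.00710). ABCA1, which loads cholesterol onto apolipoprotein A-I, fell from 86.6 ± 1.92 CPM to 37.5 ± 6.83 CPM (−1.20 ± 0.26, edgeR adjusted p = 0.00381). Every Sorafenib library of ABCA1 lay at 32.4 to 45.3 CPM and every DMSO library at 84.5 to 88.3 CPM. ABCG5, one of the paired sterol exporters into bile, fell from 19.1 ± 3.75 CPM to 5.96 ± 2.74 CPM (−1.67 ± 0.43, edgeR adjusted p = 0.0131), and ABCC6, the MRP6 pump tied to ATP release, from 23.2 ± 1.33 CPM to 10.7 ± 2.72 CPM (−1.11 ± 0.30, edgeR adjusted p = 0.0193). ABCG5 lost its call without M512_DMSO replicate 3 or M512_sorafenib replicate 2 (edgeR adjusted p up to 0.0729), and ABCC6 without any 1 of 5 libraries, M512_sorafenib replicate 3 being the exception (up to 0.0830). In MC and M222 these 4 genes had values of the same sign as in M512, which did not pass with edgeR. For ABCA1 they were −0.87 ± 0.26 and −0.85 ± 0.26, and for ABCA5 0.69 ± 0.32 and 0.96 ± 0.33. For ABCG5 they were −0.85 ± 0.42 and −0.34 ± 0.42, and for ABCC6 −0.47 ± 0.29 and −0.47 ± 0.30. In I200c the single call was ABCG8, the partner of ABCG5, with a log2 fold change of 1.44 ± 0.38 (SE, edgeR adjusted p = 0.0483), and the call was lost without 5 of the 6 libraries (up to 0.155), I200c_DMSO replicate 2 being the exception. It is named as the single call, after its value was seen.

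Among 21 other solute carriers of drugs and bile acids, 13 were tested at 6 h and 15 at 24 h. Sorafenib called 1 in I200c and 1 in M512, beside 2.28% and 9.96% of all tested genes, and 0 in the other 3 transfections. In M512, DESeq2, total-count scaling, the block and the fit without a filter called 2, and in MC the fit without a filter and that of its 6 libraries alone called 1 lower. SLCO2B1, the uptake carrier OATP2B1 of the same family as the undetected pair, fell in M512 from 16.3 ± 3.52 CPM to 4.47 ± 1.36 CPM (−1.85 ± 0.41, edgeR adjusted p = 0.00440). Its log2 fold changes were −0.92 ± 0.39 in MC and −0.65 ± 0.40 in M222, which did not pass. SLC22A7, the organic anion carrier OAT2, rose in I200c from 3.11 ± 0.925 CPM to 10.9 ± 4.07 CPM (1.78 ± 0.41, edgeR adjusted p = 0.0235). That call was lost without I200c_DMSO replicate 1 or I200c_sorafenib replicate 1 (edgeR adjusted p up to 0.130) and when the 6 libraries of I200c were fitted alone (0.0813), and at 24 h SLC22A7 had values below 0 that did not pass (−1.16 ± 0.70 in MC, −1.45 ± 0.70 in M222 and −2.19 ± 0.71 in M512). Of 5 other export proteins, edgeR called 0 in each of the 5 transfections, with 1, 1, 0, 2 and 0 of the 5 at an unadjusted p under 0.05 in IC, I200c, MC, M222 and M512. The shares of all tested genes at such a p were 3.78%, 15.3%, 16.9%, 19.1% and 24.2%.

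Transcription factors and nuclear receptors known to regulate these carriers in hepatocytes formed the last list. Of 16 such regulators 14 were tested. Of all tested genes, Sorafenib called 0.0393% in IC, 2.28% in I200c, 2.6% in MC, 4.38% in M222 and 9.96% in M512. Of the 14 regulators it called 0 in IC and I200c, 1 in MC (higher) and 3 in M222 (1 higher, 2 lower). In M512 it called 7 (3 higher, 4 lower). The M512 count was the same with each other filter, scaling and tool. In I200c the fit without a filter called 1 higher and 2 lower, and DESeq2 1 higher. In MC, DESeq2 called 2 higher and 2 lower, the fit without a filter 2 higher and 1 lower, and the block and total-count scaling 1 in each direction. HNF4A, the factor that maintains hepatocyte gene expression, fell in M512 from 256 ± 3.34 CPM to 96.6 ± 12.3 CPM (−1.40 ± 0.22, edgeR adjusted p = 0.000145). In M222 it fell from 212 ± 14.1 CPM to 117 ± 22.4 CPM (−0.86 ± 0.22, edgeR adjusted p = 0.0202), a call that was lost without any 1 of M222_DMSO replicates 1 and 3 and M222_sorafenib replicates 1 and 3 (up to 0.140). In MC its value of −0.73 ± 0.21 did not pass (edgeR adjusted p = 0.0681). PPARA, the fatty acid receptor, fell in M512 (−1.69 ± 0.31 on the log2 scale, edgeR adjusted p = 0.00103). Its values of −0.88 ± 0.30 in MC and −0.56 ± 0.30 in M222 did not pass with edgeR. NR0B2, the bile acid induced repressor SHP, fell in M512 (−1.21 ± 0.25, edgeR adjusted p = 0.00243) and in M222 (−1.15 ± 0.25, edgeR adjusted p = 0.00754, lost without M222_sorafenib replicate 1 or 3, up to 0.0607). In MC the NR0B2 value of −0.68 ± 0.24 did not pass with edgeR. CEBPB, a stress-responsive liver factor, rose in all 3 transfections at 24 h, from 33.7 ± 14.2 CPM to 148 ± 52.5 CPM in MC (2.15 ± 0.35, edgeR adjusted p = 0.000907), with log2 fold changes of 1.95 ± 0.34 in M222 (edgeR adjusted p = 0.00179) and 1.74 ± 0.34 in M512 (edgeR adjusted p = 0.00173). Among 9 hepatocyte markers edgeR called 1 lower in M222 (APOB) and 4 lower in M512 (ALB, AFP, AHSG and APOB). Of all tested genes, 4.38% and 9.96% were called there in either direction. In DMSO, M512 stood above MC, at 4980 and 3642 CPM for ALB, 2715 and 1844 for AFP, and 1941 and 1220 for AHSG. In Sorafenib the M512 and MC means were 3238 and 3031 CPM for ALB, 1305 and 1438 for AFP, and 1296 and 1298 for AHSG. In M512_DMSO against MC_DMSO, edgeR called 0 of the 9 markers higher and 1 lower, beside 0.634% of all genes. Of these markers edgeR called 0 in MC, where DESeq2, the block, total-count scaling and the fit without a filter each called 2 lower. APOB in M512 kept its call whichever library was left out. The calls of APOB in M222 (edgeR adjusted p up to 0.188 without M222_sorafenib replicate 3), AFP (up to 0.100 without M512_DMSO replicate 3), ALB (up to 0.139 without M512_sorafenib replicate 2) and AHSG (up to 0.218 without M512_DMSO replicate 3) were each lost without several single libraries. ALB and AHSG also lost theirs when the 6 libraries of M512 were fitted alone, and AHSG without a filter. Of the 12 markers of other liver cells 2 were tested, and PDGFRB, a receptor of stellate cells, was called lower in I200c and in M512, from low counts. The M512 call was lost whichever library was left out (edgeR adjusted p from 0.0780 to 0.114), and the I200c call without any library but I200c_DMSO replicate 3 (up to 0.145), with the block and in the 6-library fit. The part of these markers in the values of the carriers and regulators was not tested.

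**Figure D4:**
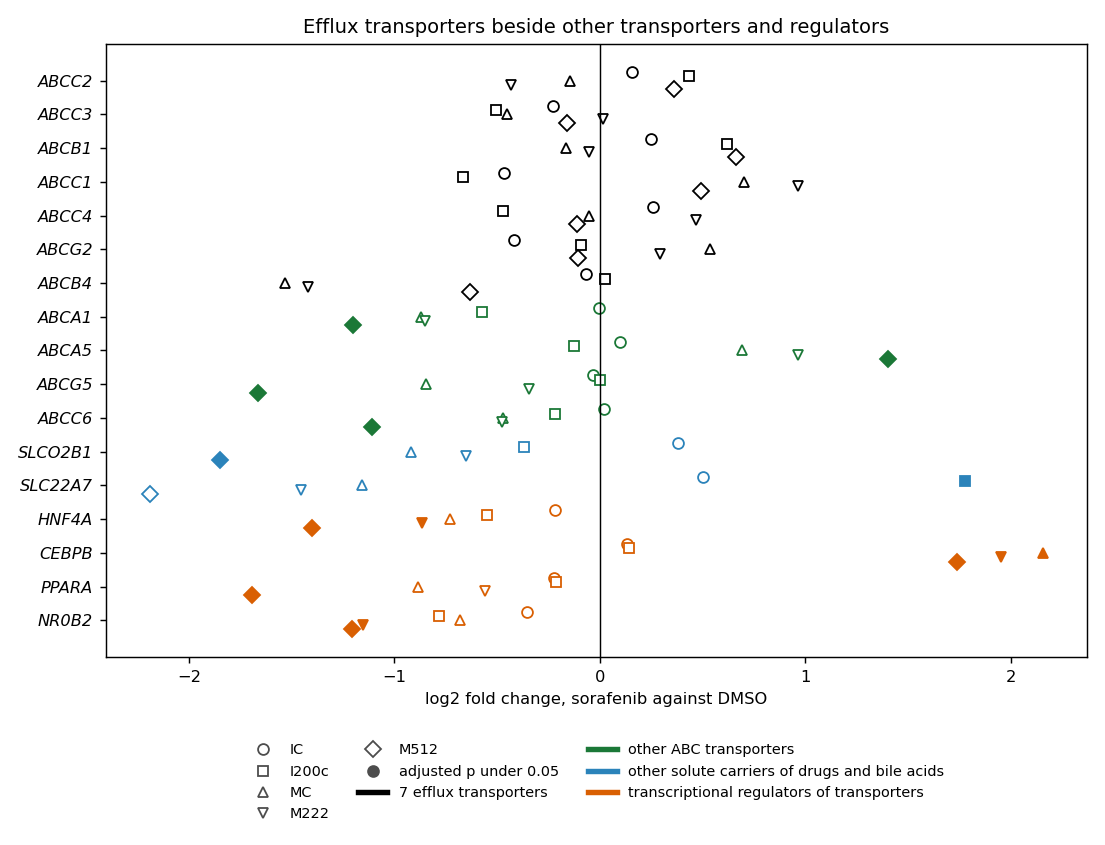
Log2 fold change of Sorafenib against DMSO for the 7 efflux pumps (black) and for the named other ABC transporters (green), solute carriers (blue) and regulators (orange), with 1 symbol per transfection and filled symbols for an edgeR adjusted p under 0.05. No symbol of the 7 pumps is filled, whereas those of ABCA1, ABCA5, ABCG5, ABCC6, SLCO2B1, HNF4A, CEBPB, PPARA and NR0B2 are filled in M512.

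That a gene passed in M512 and a pump did not is not a test of the difference between them, and none was made. The number of genes tested was 12738 at 6 h and 13244 at 24 h.

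The pumps showed little common course among themselves. Across the 10 group means (Pearson's r on the log2(CPM + 1) scale, a description over 10 points made from the same 30 libraries), the highest r between any pair was 0.73, for ABCG2 with ABCC1, and the lowest −0.68, for ABCC2 with ABCG2. Within groups, over the deviations of the 30 libraries from their group means, the values ran from −0.60 (ABCB1 with ABCC1) to 0.42 (ABCB1 with ABCC2). ABCB1 and its chromosomal neighbour ABCB4 had an r of −0.17 over group means and 0.04 within groups. Among 9741 genes with a mean of at least 5 CPM, those with the course most like that of each pump over the 10 group means were picked. They were ULK4 (0.93) and STX10 (0.92) for ABCB1, TOP2A (0.96) and ATP5MC1 (0.96) for ABCB4, and HOXA-AS2 (0.89) and ZNF217 (0.88) for ABCC2. For ABCG2 they were LGMN (0.92) and EIF4A3 (0.91), for ABCC1 PSMA3 (0.97) and ORC6 (0.96), for ABCC3 DCDC2 (0.97) and SLC36A4 (0.92), and for ABCC4 ABTB2 (0.86) and GNE (0.85). With 10 points and so many genes compared, values this high are found for every pump, and they are given as a description only.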

How the data were processed

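Raw counts per gene were used as deposited. Per the labels and the study's methods, the authors made them from QuantSeq 3′ FWD reads with DRAGEN, adapter trimming, STAR on GRCh38 and HTSeq. The versions of STAR and HTSeq, the annotation release and the strand setting were not given in the sources used here. The authors' table of normalized values was not used. The 92 lines of spike-in controls, which name no gene, held 3 counts and were left out.

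Groups were taken from the labels. Libraries held 3938764 to 9657063 counts, and intervals and limits from counts of 0 cover counting error only. Genes were tested with edgeR 4.0.16 (R 4.3.3, quasi-likelihood, two-sided, filterByExpr by group, TMM), in 12 libraries at 6 h, 18 at 24 h and 12 of both controls, with Benjamini-Hochberg adjustment over all genes tested and calls under 0.05. Standard errors were taken from the F statistic. Levels are TMM-scaled CPM. DESeq2 1.42.0, no filter, other scalings, a replicate block, 6-library fits and leaving out each library were the alternatives. The code was tested on simulated counts with known changes. Of changes of 1 on the log2 scale, edgeR recovered 54% for Sorafenib in IC, 32% in MC and 9% for the interaction with time. Of changes of 2 it recovered 80%, 65% and 67%, so many 2-fold changes would be missed. The labels do not say how the replicate cultures were kept apart, so p-values measure the spread between these libraries.

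Members and lists were chosen with earlier results of these data known. All members were named, and from each list at most 4 genes called with Sorafenib, by lowest adjusted p. Gene positions are from GENCODE 44. The numbers of the replicates were checked for pairing: same-numbered libraries deviated together by over 0.1 in all 3 pairs only for M222_DMSO with MC_DMSO (correlations of 0.13, 0.14 and 0.12), where the block gave 3 called genes in place of 0, and none of the 7 pumps. For M222_sorafenib with M222_DMSO the same number was also the best match in all 3 pairs (0.11, 0.079 and 0.058). So it was for M512_sorafenib with MC_sorafenib (0.045, 0.047 and 0.14). The block took the genes called with Sorafenib from 291 to 310 in I200c, 344 to 470 in MC, 580 to 748 in M222 and 1319 to 1520 in M512.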

Additional observations from a re-analysis of the deposited data

Results flagged for a closer look

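CEBPB, the stress-responsive liver factor, differed between the control transfections in its response to Sorafenib. The difference of the log2 fold changes, MC at 24 h minus IC at 6 h, was 2.01 ± 0.38 (SE, edgeR adjusted p = 0.0411), and the call was lost with the replicate block (0.0704) and without most single libraries (up to 0.174). Time and the kind of control oligonucleotide cannot be told apart here.

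SLC22A7, the organic anion carrier OAT2, was higher with Sorafenib in every I200c library at 6 h (log2 fold change 1.78) and lower in every library of M222 (−1.45) and of M512 (−2.19) at 24 h, without overlap. The difference between these transfections was not tested, and they differ in time and in control. The M222 and M512 values did not pass (edgeR adjusted p = 0.26 and 0.052), and in MC the libraries overlapped (−1.16). Levels were low, down to 0 CPM in M512_sorafenib replicate 1. Of all tested genes, 17.4% did not overlap in I200c, 26.8% in M222 and 29.9% in M512, in either direction.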

How the results depend on the processing

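The count of called pumps among the 7 stayed at 0 in all comparisons with other filters, scalings, DESeq2, the block and the 6-library fits. Without single libraries it ranged from 0 to 1 for Sorafenib in M512, the 1 being ABCB1 without M512_sorafenib replicate 3. The replicate block changed no call among the 7 pumps, but moved the log2 fold change of ABCB4 in IC from −0.07 to 0.012, and it ended the calls of ABCG8 and PDGFRB in I200c and of CEBPB over time. Total-count scaling moved ABCC3 in M222 from 0.02 to −0.086. Other values near 0 changed sign without single libraries, ranging for ABCB4 from −0.29 to 0.49 in IC and −0.37 to 0.61 in I200c, for ABCC2 from −0.0039 to 0.37 in IC, for ABCG2 from −0.54 to 0.18 in I200c and −0.31 to 0.16 in M512, for ABCB1 from −0.29 to 0.018 in MC and −0.044 to 0.036 in M222, for ABCC4 from −0.25 to 0.20 in MC and −0.27 to 0.021 in M512, and for ABCC3 from −0.034 to 0.16 in M222. The cause was not tested. Over all genes, Sorafenib called 5 in IC (62 without a filter, 34 with DESeq2, 2 with the block, 0 in the 6-library fit), 291 in I200c (519, 482 and 113 without a filter, with DESeq2 and in the 6-library fit), 344 in MC (684, 723 and 218) and 580 in M222 (1013 with DESeq2). Without single libraries these counts ran from 0 to 17 in IC, 129 to 503 in I200c, 112 to 602 in MC and 204 to 734 in M222. For M512 the range was 760 to 1232, in place of 1319. The lowest counts came without IC_DMSO replicate 1 or IC_sorafenib replicate 3, I200c_sorafenib replicate 2, MC_DMSO replicate 3, M222_DMSO replicate 3 and M512_DMSO replicate 2, and the highest without IC_DMSO replicate 2, I200c_DMSO replicate 2, MC_sorafenib replicate 2, M222_sorafenib replicate 2 and M512_sorafenib replicate 3. Total-count scaling gave all genes a median of −0.12 for MC, −0.14 for M222 and −0.22 for M512, and took the genes called higher from 239 of 344 to 174 of 347 in MC, 373 of 580 to 300 of 626 in M222 and 707 of 1319 to 462 of 1543 in M512.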
